A study of Mus musculus with 4 samples.

Results

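Shared intergenic regions near genes are the stretches of open chromatin that were called in every library of this study and lay outside protein-coding genes but within reach of one. Of 36224 regions of open chromatin, 16761 were called in all 4 libraries, and 2685 of those (7.41% of all regions, 16.0% of the shared ones) were of this kind and are the members described here. Members were selected on the deposited peak calls: peaks of the 4 lists were merged where they overlapped by at least 1 bp, each region took the summit of its peak with the highest fold, and a member had a peak from every list and a summit outside all RefSeq protein-coding gene spans, more than 1000 and at most 50000 bp from the nearest gene start or end. Open chromatin was profiled by ATAC-seq, in which a transposase cuts accessible DNA and tags the pieces for sequencing. All 4 libraries came from DN3 cells of the thymus of wild-type (WT) mice, and neither age nor strain is given in the labels. DN3 cells were flow sorted and then passed over magnetic beads with an anti-EpCAM antibody, so that the EpCAM-positive cells were retained and the unlabelled flow-through made up the EpCAM-negative cells. Each fraction had 2 libraries. Whether the 2 are from different mice is not stated in the labels, so replicate spread may be technical only. With 2 libraries a side, the smallest two-sided p an exact permutation test can reach is 0.33.

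Open regions between genes are where many enhancers lie, stretches of DNA that bind transcription factors and raise transcription from a promoter at a distance, and where promoters of non-coding RNA genes and sites bound by the insulator protein CTCF are also found. A DN3 thymocyte has committed to the T lineage, rearranges its T cell receptor beta gene and is tested for a working pre-T cell receptor, and enhancers of Notch, interleukin-2 receptor and T cell receptor genes are known to be used at this stage. EpCAM is a cell adhesion molecule known mainly from epithelial cells. A region is named here by its nearest protein-coding gene, which need not be the gene it acts on, and an ATAC-seq peak shows accessible DNA but not which protein occupies it.

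All values come from the authors' peak caller or were derived from its output. The fold is the pileup of fragments at a peak's summit plus 1, divided by the local background plus 1. Summit pileup and local background were not listed and were solved here from the fold and −log10 p. The highest fold of a region in a library was ranked among the 16761 shared regions of that library, on a scale of 0 (lowest) to 100 (highest). The peak lists held 24598 to 29030 peaks. Pairs of values are given throughout for EpCAM-positive replicates 1 and 2 first and for EpCAM-negative replicates 1 and 2 second. The lowest local background shared by at least 1% of peaks was 0.388 and 0.383 fragments against 0.290 and 0.286, and the lowest −log10 q listed was 2.07 and 2.02 against 1.32 and 1.34. The fractions thus differed in background level and in the limit of the lists, and neither was adjusted for beyond ranking. Of 12 marker genes of the DN3 stage, 9 had at least 1 shared region of any location and 6 had a member nearest to them. The marker genes without a shared region nearest to them were Ptcra, Rag1 and Rag2, each with 1 to 5 regions called in fewer libraries.

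No genome sequence was used here, so sequences are shown only for members whose summit fell inside a promoter window of a long non-coding RNA (lncRNA) gene or that cover a microRNA. A promoter window runs from 250 bases before to 50 bases after a transcript start. There were 83 such members (3.09%) over 93 windows of 86 lncRNA genes. The 6 windows below, chosen after their values were seen, are shown because their members stand near the top of the rank scale (1700113A16Rik and Mir22hg) or ranked apart in the fractions (Gm9875 and Gm52049 higher in EpCAM-positive, Gm33100 and 2810410L24Rik higher in EpCAM-negative). They are RefSeq sequences of mm10 (GRCm38.p6), written 5′ to 3′ on the strand of the lncRNA. Capitals mark matches to any of 12 short motifs, which are spelled out with their shares further on.
1700113A16Rik (chr3:88177736-88178035, minus strand): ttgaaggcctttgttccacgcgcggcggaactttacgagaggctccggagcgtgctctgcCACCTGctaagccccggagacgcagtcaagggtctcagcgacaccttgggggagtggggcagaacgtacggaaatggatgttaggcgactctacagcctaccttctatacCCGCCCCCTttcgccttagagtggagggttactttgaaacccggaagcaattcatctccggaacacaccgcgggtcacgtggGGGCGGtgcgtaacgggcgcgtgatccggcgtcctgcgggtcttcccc
Mir22hg (chr11:75461289-75461588, plus strand): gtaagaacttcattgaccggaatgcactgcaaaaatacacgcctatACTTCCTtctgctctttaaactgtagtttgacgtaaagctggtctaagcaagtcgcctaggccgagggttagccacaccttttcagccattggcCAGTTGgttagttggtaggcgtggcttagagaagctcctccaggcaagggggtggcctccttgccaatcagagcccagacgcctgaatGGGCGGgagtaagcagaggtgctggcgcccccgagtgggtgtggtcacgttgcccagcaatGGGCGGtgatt
Gm9875 (chr2:13558653-13558952, plus strand): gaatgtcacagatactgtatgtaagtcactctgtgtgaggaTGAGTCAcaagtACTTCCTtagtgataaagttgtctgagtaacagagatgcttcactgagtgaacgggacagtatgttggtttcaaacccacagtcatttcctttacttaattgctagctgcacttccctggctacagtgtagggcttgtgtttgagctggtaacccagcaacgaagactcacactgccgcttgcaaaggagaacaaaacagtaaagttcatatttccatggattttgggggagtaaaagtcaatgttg
Gm52049 (chr13:51638986-51639285, plus strand): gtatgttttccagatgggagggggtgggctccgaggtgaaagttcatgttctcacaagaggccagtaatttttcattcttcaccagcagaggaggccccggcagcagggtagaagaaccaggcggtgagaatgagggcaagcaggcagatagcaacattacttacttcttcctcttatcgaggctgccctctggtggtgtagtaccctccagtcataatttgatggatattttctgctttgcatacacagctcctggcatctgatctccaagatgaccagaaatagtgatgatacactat
Gm33100 (chr5:96879092-96879391, plus strand): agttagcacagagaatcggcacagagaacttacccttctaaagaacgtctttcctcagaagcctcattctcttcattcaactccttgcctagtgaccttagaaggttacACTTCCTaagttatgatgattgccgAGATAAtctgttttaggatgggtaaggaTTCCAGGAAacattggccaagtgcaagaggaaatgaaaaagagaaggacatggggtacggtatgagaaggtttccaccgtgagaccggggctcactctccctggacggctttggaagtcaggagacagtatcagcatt
2810410L24Rik (chr11:120189807-120190106, minus strand): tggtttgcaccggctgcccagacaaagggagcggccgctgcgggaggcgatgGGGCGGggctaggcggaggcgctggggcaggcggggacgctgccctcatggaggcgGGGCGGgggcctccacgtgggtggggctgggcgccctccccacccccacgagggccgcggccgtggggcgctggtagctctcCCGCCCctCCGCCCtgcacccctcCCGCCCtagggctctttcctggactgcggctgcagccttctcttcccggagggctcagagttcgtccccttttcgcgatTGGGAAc

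The 1700113A16Rik window had 28 CpG dinucleotides and a GC content of 61.3%, with matches to the SP/KLF, CTCF and E protein motifs. Mir22hg, the host transcript of microRNA miR-22, had 12 CpG, 1 ETS match, 1 MYB match and 2 SP/KLF matches, and its member had a mean rank of 97.5. The 2810410L24Rik window was the richest of the 6 in GC (74.0%), with 27 CpG, 5 SP/KLF matches and 1 match to the RBPJ and Ikaros motif. The Gm9875 window was poor in CpG (3) and held 1 AP-1 match and 1 ETS match 5 bases apart, the Gm33100 window held 1 ETS, 1 GATA and 1 STAT match, and the Gm52049 window held none of the 12 motifs. At Gm9875 the folds were 15.1 and 17.3 (EpCAM-positive) against 8.22 and 5.38 (EpCAM-negative), and at Gm52049 they were 13.3 and 13.6 against 10.1 and 7.66. At Gm33100 they were 9.24 and 7.89 against 13.3 and 11.3, and at 2810410L24Rik 7.21 and 6.82 against 8.89 and 8.97. The fractions did not overlap in fold at any of these 4 windows. They were picked because their ranks lay apart, so this follows from the choice and is not a separate result. At 1700113A16Rik, picked for its high rank, the folds overlapped (24.5 and 24.8 against 24.4 and 26.0).

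MicroRNAs pair with target transcripts mainly through their seed, bases 2 to 8 of the mature strand. Across all members, 6 covered 7 microRNA hairpins. The mature strands shown, chosen after the members' values were seen, are those with a seed shared within 1 member, and let-7i, a family known in lymphocytes. They are RefSeq sequences of the same build, 5′ to 3′ with the seed in capitals.
miR-212-3p (chr11:75173443-75173464, plus strand): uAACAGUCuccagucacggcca
miR-132-3p (chr11:75173723-75173744, plus strand): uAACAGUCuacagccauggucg
let-7i-5p (chr10:122985698-122985719, minus strand): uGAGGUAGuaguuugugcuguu

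The member over Mir212 and Mir132 (chr11:75173230-75173910) lay 2517 bp from Ovca2, and both 3p strands carry the seed AACAGUC. Its folds were 9.74 and 9.79 against 8.45 and 10.6, with overlap between the fractions. The member over let-7i (chr10:122985401-122986576), 5667 bp from Mon2, had folds of 8.75 and 7.67 against 9.05 and 7.30, again overlapping. Members over Mir713 (11.1 and 12.3 against 9.97 and 6.11) and Mir760 (10.4 and 8.87 against 7.21 and 5.76) had no overlap, with the EpCAM-positive libraries higher. Both also passed the rank rule described below in that direction, as 7.60% of all members and 5.86% of all shared regions did. Lack of overlap was common: by rank, 553 of all 2685 members had it with EpCAM-positive higher and 596 with EpCAM-negative higher. Over all 16761 shared regions the numbers were 3205 and 3475. The other hairpins were Mir7671 near Irf1, with folds of 14.7 and 12.3 against 15.7 and 14.0, and Mir8096. Accessibility of a hairpin does not measure the microRNA itself.

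Among intergenic regions more than 1000 and up to 50000 bp from a gene, 2685 of 7795 were shared by all 4 libraries (34.4%, exact Clopper-Pearson 95% interval 33.4 to 35.5, counting error only). The share was 70.3% within 1000 bp of a gene start or end, 36.7% inside genes and 30.5% beyond 50000 bp. These shares describe the lists and carry no test, since the calls define the members. A further 986 intergenic regions in the same band were called in 3 libraries only, and their median folds were 5.98 and 6.21 against 5.92 and 6.02 in the lists that called them, below those of the members.

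The members lay near 2113 protein-coding genes, at a median of 12303 bp from the nearer gene start or end (25th to 75th percentile 5373 to 23431 bp). Strand was known for the nearest gene of 2076 members, of which 1084 (52.2%, exact interval 50.0 to 54.4) lay upstream of it. Upstream positions made up 47.4% (39.8 to 55.1) up to 2000 bp and 42.9% (37.4 to 48.6) above 2000 and up to 5000 bp. The share was 55.1% (50.2 to 60.0) above 5000 and up to 10000 bp. It was 56.1% (51.8 to 60.4) above 10000 and up to 20000 bp and 53.0% (49.1 to 57.0) beyond that. The members just inside the lower limit were nearest to Ccin (1010 bp; folds 7.85 and 11.1 against 7.47 and 5.30), Rtn4rl2 and Slc11a1, and the shared regions just outside it to Ssbp4 (996 bp; folds 3.71 and 3.52 against 3.56 and 4.40), Tnfrsf1b and Ebf1. At the upper limit, the member nearest to Tle3 lay 49943 bp away (folds 11.2 and 12.8 against 12.4 and 12.1), and the shared region nearest to Tmem26 lay just outside, at 50007 bp (7.31 and 8.02 against 6.52 and 8.18). Non-coding genes were not part of the rule: 619 members (23.1%) had their summit inside an annotated non-coding gene or pseudogene.

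Members were moderate in strength. Their median fold was 8.36 and 8.99 against 8.40 and 8.70, below the 11.0 and 11.5 against 11.2 and 11.2 of shared regions at gene ends, and close to the 8.09 and 8.68 against 8.37 and 8.62 of shared regions inside genes. The median rank of the members was 38.5 and 40.3 against 38.3 and 40.1, that is 39.4 ± 1.23 against 39.2 ± 1.27 (SD, n = 2 libraries each; two-sided exact permutation p = 0.67). The values of the fractions interleaved, and replicate 2 was the higher one in each. Peaks at members were wider in the EpCAM-positive libraries, with medians of 482 and 456 bp against 404 and 399 bp, 469 ± 18.4 against 401.5 ± 3.54 bp (SD, n = 2 each; two-sided p = 0.33 by the exact permutation test, its lower limit here). Shared regions at gene ends had the same order, at 683 and 631 against 580 and 541 bp. The median summit pileup of members moved with the width, at 22 and 24 fragments against 18 and 19, as did the background given above, and their part in the width was not tested. The 4 summits of a member lay close together, with a median range of 99 bp, and 1364 members (50.8%) had all of them within 100 bp.

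The 15 members with the highest mean rank over the 4 libraries had similar values in every library. The member with the highest mean rank lay 6411 bp from Stard10, a lipid transfer protein (chr7:101310486-101311014), with folds of 26.3 and 27.6 (EpCAM-positive) against 26.4 and 28.1 (EpCAM-negative). It was followed by members near Arhgap12, a GTPase-activating protein (34482 bp away; 25.5 and 28.4 against 26.3 and 28.0), Ptma, which encodes prothymosin alpha (38983 bp; 24.8 and 26.3 against 25.6 and 26.4), and Mef2d, a transcription factor (5858 bp; 24.5 and 24.8 against 24.4 and 26.0). The Mef2d member holds the 1700113A16Rik promoter printed above. Of T cell genes, Ptprc, which encodes the phosphatase CD45 carried by all white blood cells, had a member in the top 15 (16203 bp upstream, chr1:138191520-138192316), with folds of 21.3 and 22.9 against 21.2 and 21.4. The others were near Trappc9, Eif2s3x (a subunit of translation initiation factor eIF2), Morn3, Sfpq (a splicing factor), Pum2 and Rps6ka1 (the kinase RSK1), and near B4galnt1, Gm52512, Sod1 (superoxide dismutase) and Idnk.

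To describe differences between the fractions, a member was called higher in a fraction where its lower rank in that fraction's libraries was at least 10 points above its higher rank in the other's. By this rule 204 members (7.60%) ranked higher in EpCAM-positive cells, against 5.86% of all shared regions, and 223 (8.31%) ranked higher in EpCAM-negative cells, against 6.09% of all shared regions. The members' shares were a little above both backgrounds, and with 2 libraries against 2 no single call carries a p-value. Ranked by −log10 q, 135 of the 204 and 186 of the 223 calls were kept, and ranked by summit pileup 96 and 136. Leaving out any 1 of the 4 libraries gave 409 to 462 and 411 to 490 calls among members, where fewer ranks have to lie apart, and 2171 to 2441 and 2193 to 2443 among all shared regions. Shared regions at gene ends had the lowest share in the EpCAM-negative direction (3.43%, with 5.34% in the other), regions inside genes had 5.92% and 8.55%, and regions beyond 50000 bp 5.20% and 9.17%, in the EpCAM-positive and EpCAM-negative directions. The median difference between libraries in a member's rank was 9.86 points within EpCAM-positive and 9.56 within EpCAM-negative, and 11.1 to 12.5 points for the 4 pairs across fractions, so the differences across fractions were only slightly larger than those between replicates. The scale ends at 0 and 100, so the rule leaves little or no room for calls near its ends. Between them, 9.99% and 10.9% (EpCAM-positive) and 10.6% and 10.1% (EpCAM-negative) of members with a mean rank of 21.9 to 37.6 and of 37.6 to 60.3 were called. Above a mean rank of 60.3 these shares were 5.66% and 7.15%, and below 21.9 they were 3.87% and 5.36%, and part of this order follows from the rule.

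**Figure D1:**
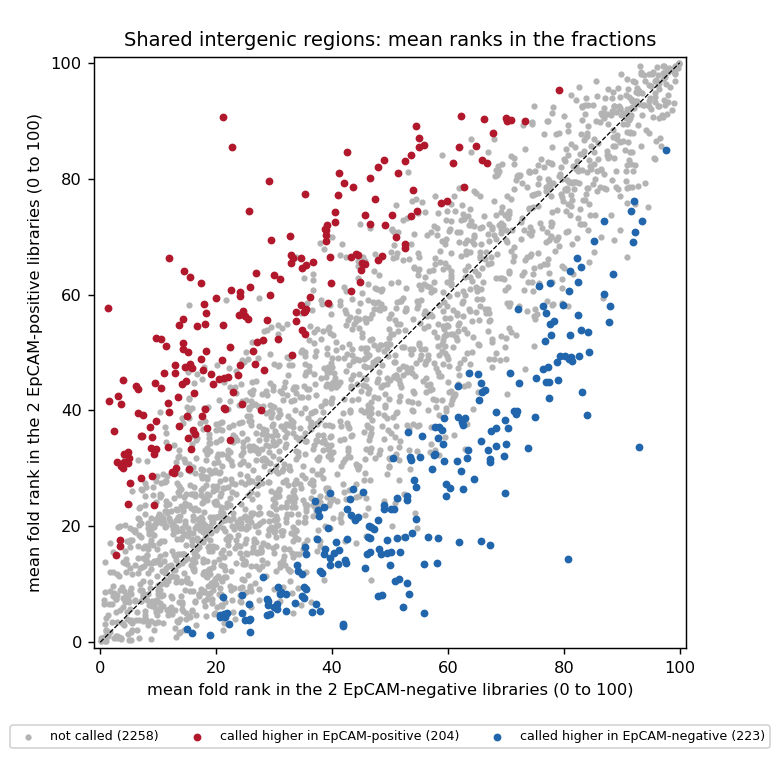
Mean fold rank of each of the 2685 members in the 2 EpCAM-negative libraries (horizontal, 0 to 100) and the 2 EpCAM-positive libraries (vertical, 0 to 100), with 1 point per member and the dashed line marking equal ranks. The 204 members called higher in EpCAM-positive lie above the line and the 223 called higher in EpCAM-negative below it, and most points (2258) were not called.

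**Figure D2:**
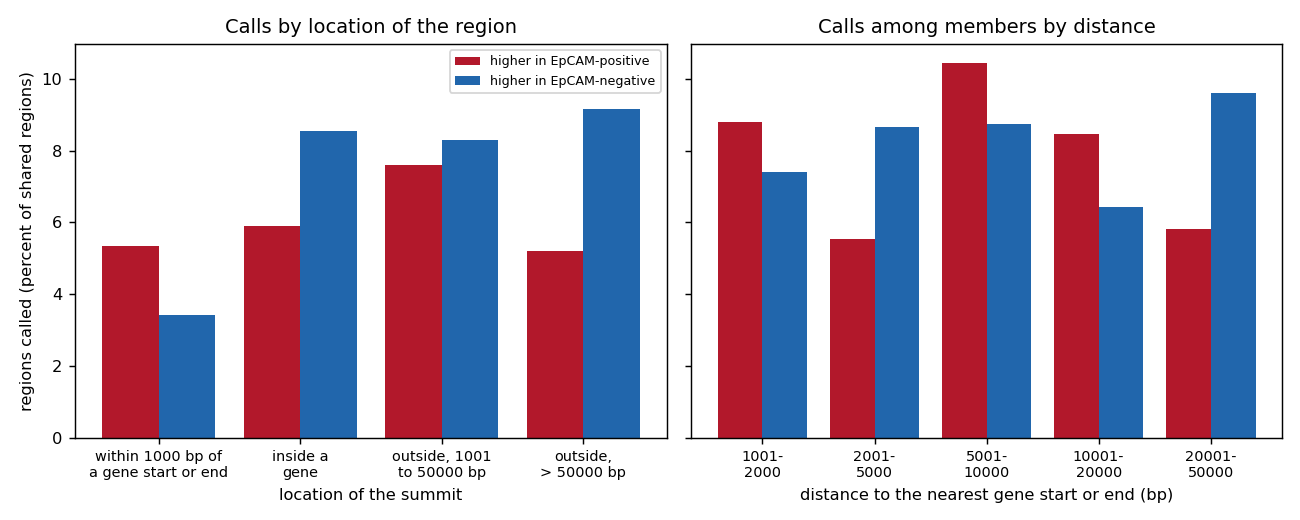
Percent of shared regions called higher in each fraction, by location of the region (left, where the pair of bars for outside regions up to 50000 bp holds the members) and, for members alone, by distance in bp to the nearest gene start or end (right). The bars have no error because each is a share of 1 set of regions. Gene-end regions have the lowest EpCAM-negative bar at 3.43%, and members reach 10.5% in the EpCAM-positive direction above 5000 and up to 10000 bp.

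The largest differences toward EpCAM-positive cells were at members near genes of varied function. The first lay 13398 bp from Mmp27, a matrix metalloproteinase (chr9:7594980-7595664), with folds of 15.0 and 14.5 (EpCAM-positive) against 7.29 and 6.73 (EpCAM-negative) and ranks of 88.3 and 82.7 against 26.2 and 19.3, a gap of 56.5 points. Replicates lay close together in both fractions. Next came a member 6856 bp upstream of Rpl11, a protein of the large ribosomal subunit (folds 10.5 and 10.6 against 4.57 and 4.63), and the Gm9875 promoter member, whose nearest coding gene is the RNA methyltransferase gene Trdmt1. The member 31488 bp from Eya2, a transcriptional coactivator, had folds of 12.9 and 14.3 against 8.15 and 7.03, and the one 20798 bp upstream of Papss2, an enzyme that makes the sulfate donor of the cell, 12.6 and 10.7 against 5.68 and 6.31. Tet2 encodes an enzyme that oxidises methylated cytosine and is known to act in blood cells. The member 18432 bp upstream of it (chr3:133563394-133564043) had folds of 12.7 and 13.6 against 8.34 and 7.94 and a gap of 39.2 points.

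The rest of the 12 largest gaps in this direction were near Cdc42ep1 (13.7 and 15.4 against 8.56 and 9.21), an effector of the GTPase Cdc42, Sec61b (9.12 and 8.64 against 4.65 and 4.58), a subunit of the channel that takes proteins into the endoplasmic reticulum, Fam71b, 9530057J20Rik, Malt1 and Hsd17b12. Malt1, the paracaspase that carries antigen receptor signals to NF-kappaB, had a member 11324 bp away with folds of 9.94 and 9.81 against 6.03 and 6.45. The second Malt1 member, 14727 bp away, had overlapping folds of 5.31 and 5.72 against 5.36 and 5.65.

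Toward EpCAM-negative cells the largest difference was at Tox, an HMG-box factor of T cell development. The member 11118 bp from Tox (chr4:6674942-6675454) had folds of 4.72 and 7.62 (EpCAM-positive) against 12.7 and 16.0 (EpCAM-negative) and ranks of 2.64 and 26.0 against 73.2 and 88.1, a gap of 47.2 points, although the replicates of each fraction also stood apart from each other. A second Tox member 4208 bp away had nearly equal folds in the 4 libraries and was not called. Rab38, a small GTPase of pigment granule formation, had a member 6144 bp away with 6.76 and 9.62 against 17.1 and 18.1, the highest EpCAM-negative folds among these 12 members. Members near Smg9 (4.43 and 5.80 against 10.4 and 10.3), which acts in nonsense-mediated RNA decay, and Capn8 (6.47 and 6.69 against 11.1 and 11.2), a calpain protease, had replicates that lay close together in the EpCAM-negative fraction.

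Il2ra encodes CD25, the interleukin-2 receptor alpha chain that defines the DN3 stage together with the absence of CD44, and it was among these 12 genes. Its member 5533 bp upstream (chr2:11636967-11637589) had folds of 4.19 and 5.31 against 8.22 and 9.50 and ranks of 0.904 and 4.86 against 36.2 and 47.7. The other 2 Il2ra members did not pass the rule, one 6388 bp upstream, in the opposite order, with folds of 6.26 and 6.16 against 5.51 and 4.56 and one 19497 bp upstream with 7.98 and 9.89 against 10.5 and 10.6. The group was completed by Pkdcc (6.14 and 6.31 against 9.90 and 10.9), Klhl31, Kpna2 (an importin; 8.44 and 9.64 against 14.3 and 14.8), Aqp9 (a water and glycerol channel), Plac8, Gpcpd1 and Atad1. Of the 24 members with the largest gaps, all 24 kept a gap of 10 points or more when −log10 q was ranked in place of fold, and 21 did when the summit pileup was ranked. The 3 that did not were those near Aqp9, Pkdcc and Sec61b.

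**Figure D3:**
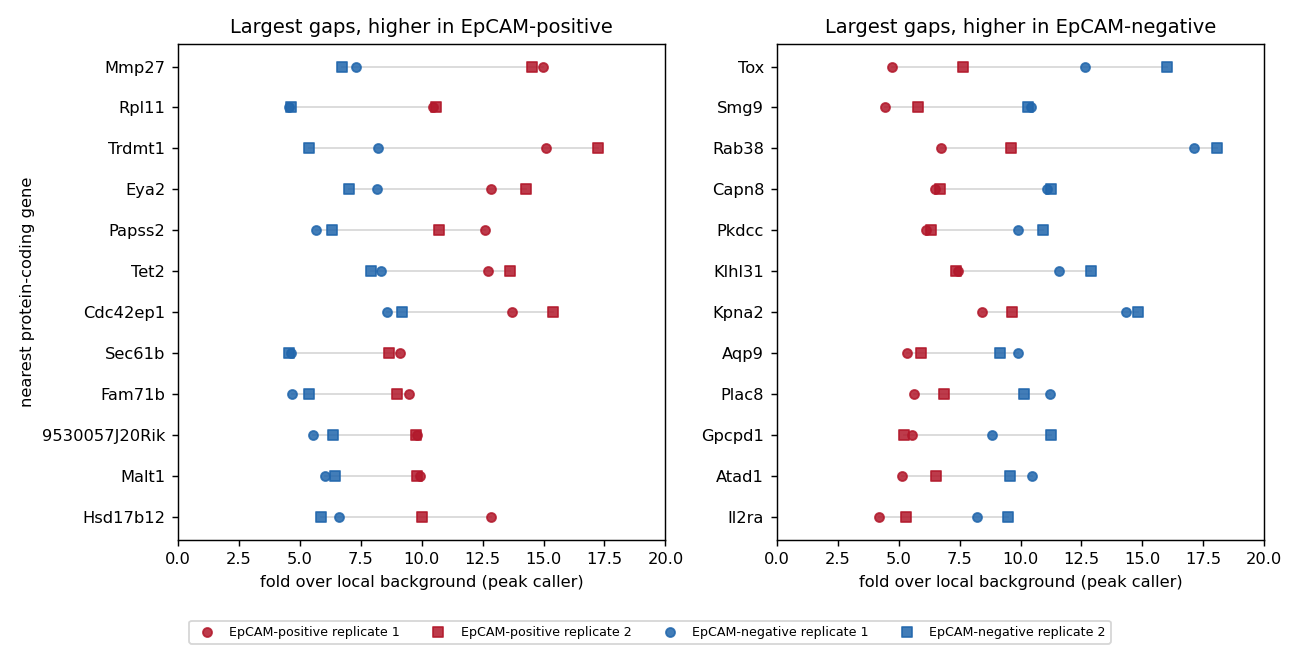
Deposited fold over local background (horizontal, starting at 0) in each of the 4 libraries for the 12 members with the largest rank gap in each direction, named by nearest gene. Red marks EpCAM-positive and blue EpCAM-negative libraries, circles replicate 1 and squares replicate 2, and the grey line spans the 4 values. Red and blue do not overlap for any of the 24, because the rule chose them so, and the Tox, Rab38 and Trdmt1 members show the widest spread between replicates.

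The gene lists described next were compiled for T cell development with earlier results of these data known, and 197 members (7.34%) had a listed gene nearest to them. Of these, 14 (7.11%) ranked higher in EpCAM-positive and 24 (12.2%) in EpCAM-negative cells, beside 7.60% and 8.31% of all members and 5.86% and 6.09% of all shared regions. No test was made on any list. T lineage transcription factors had 21 members near 16 of 33 genes, with a median mean rank of 40.1 against 37.6 over all members. Of the 21, 0 were called higher in EpCAM-positive and 4 (19%) in EpCAM-negative. The 4 were at Tox, given above, Ets1, Ets2 and Zeb1. Ets1, an ETS factor needed for T cell development, had 3 members, and the one 44219 bp away had folds of 10.9 and 11.2 against 13.5 and 13.5, with tight replicates. The member 7950 bp downstream of Ets2 had folds of 6.40 and 6.86 against 8.30 and 8.43, and that at Zeb1, a zinc-finger repressor, 44468 bp away, 8.46 and 4.94 against 9.62 and 10.9, where EpCAM-positive replicate 2 alone was far below the others. The Ets1 and Zeb1 calls were lost when −log10 q or pileup was ranked, and the Tox and Ets2 calls were kept under both.

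The members near the other T lineage factors did not pass the rule. The strongest lay 5903 bp upstream of Ikzf1, which encodes Ikaros, with folds of 10.0 and 15.5 against 12.6 and 12.2. Foxo1, a factor of interleukin-7 receptor expression and T cell homing, had 2 members downstream, with 8.90 and 12.4 against 11.0 and 15.4, and at the other 9.36 and 11.0 against 12.7 and 11.9. Gata3 and Tcf7 (encoding TCF1), early factors of T lineage commitment, had 1 member each, 1625 bp upstream (7.79 and 9.24 against 10.9 and 9.42) and 31046 bp upstream (10.7 and 9.77 against 7.59 and 10.7). Bcl11b had 9 shared regions nearest to it, none of which was a member. In the list, 10 members had the higher mean rank in EpCAM-positive and 11 in EpCAM-negative cells, with a median difference of -9.10 points (EpCAM-positive minus EpCAM-negative), against 0.101 points over all members.

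Notch signalling holds thymocytes to the T lineage up to this stage. The Notch list had 9 members near 8 of 23 genes, with 1 call (11.1%) in each direction. Of all members 7.60% and 8.31% were called, and of all shared regions 5.86% and 6.09%. The member 9680 bp upstream of the receptor gene Notch1 (chr2:26513139-26514034) had folds of 8.26 and 8.98 (EpCAM-positive) against 14.2 and 12.1 (EpCAM-negative), a gap of 28.2 points toward EpCAM-negative that was kept when −log10 q or pileup was ranked. Psen2, a catalytic subunit of the gamma-secretase that cleaves Notch, had a member 16380 bp upstream with 12.9 and 14.4 against 8.10 and 10.8, higher in EpCAM-positive, and that call was lost under both other rankings. The members near Notch3, the glycosyltransferase gene Lfng, the target genes Hes1 and Heyl, Rfng and Spen did not pass the rule. The strongest of them was at Spen, which encodes a corepressor of Notch targets, with folds of 13.5 and 11.3 against 12.9 and 11.0.

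Genes of V(D)J recombination and repair had 7 members at 2 of 15 genes, with 0 calls toward EpCAM-positive and 2 (28.6%) toward EpCAM-negative. These shares stand beside 7.60% and 8.31% of all members and 5.86% and 6.09% of all shared regions. Dntt encodes terminal transferase, the enzyme that adds bases at the joints of antigen receptor genes. Its member 6880 bp upstream (chr19:41022091-41022633) had folds of 6.74 and 9.36 against 11.2 and 13.4, higher in EpCAM-negative under each ranking, and a second one 13013 bp upstream had 10.8 and 10.5 against 11.4 and 8.62, with overlap. Hmgb1, a DNA-bending protein used as a cofactor of the RAG recombinase, had 5 members, of which 1, 15216 bp downstream, was called higher in EpCAM-negative (10.6 and 11.4 against 13.4 and 12.9), a call lost under the other rankings. Other Hmgb1 members, not called, had their summits in promoter windows of the lncRNA genes Gm15411, Gm15408 and Gm30078. The 9 members of the DN3 marker list, which shares genes with these lists, had 0 calls toward EpCAM-positive and 3 (33.3%) toward EpCAM-negative, at Il2ra, Notch1 and Dntt. Their median mean rank was 49.3, and the median difference was -15.4 points (EpCAM-positive minus EpCAM-negative), with 4 members higher in the former and 5 in the latter.

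Signalling from the pre-T cell receptor was the list with the most members, 33 near 22 of 44 genes, with a median mean rank of 28.6. Of these, 5 (15.2%) ranked higher in EpCAM-positive and 3 (9.09%) in EpCAM-negative cells. Among all members the shares were 7.60% and 8.31%, and among all shared regions 5.86% and 6.09%. The 5 were at Malt1, Zap70 (a kinase bound to the receptor; 2117 bp downstream, 7.53 and 9.43 against 5.03 and 6.20), Lat (the adaptor phosphorylated by that kinase; 33512 bp downstream, 13.1 and 11.1 against 9.11 and 6.19), Vav1 (a guanine nucleotide exchange factor; 2197 bp upstream, 8.43 and 10.3 against 6.81 and 7.38) and Prkcq (protein kinase C theta; 38392 bp downstream, 8.84 and 8.64 against 6.04 and 7.12). Among the 3 were members at Lcp2, which encodes the adaptor SLP-76 (24632 bp downstream, 5.98 and 6.41 against 9.22 and 7.95), and Sit1, an adaptor that restrains signalling (3551 bp downstream, 5.02 and 7.49 against 9.00 and 8.16). At Zap70, Lat, Vav1 and Sit1 the replicates of 1 fraction differed by more than the distance between the nearest values of the fractions. Ranked by −log10 q, 6 of the 8 calls were kept, and ranked by pileup 2, those at Malt1 and Prkcq.

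The strongest signalling members did not pass the rule. After Ptprc came the member 9325 bp from Cd69, an early activation marker (16.0 and 14.3 against 13.8 and 15.7), and that 30606 bp downstream of Spry1, a feedback inhibitor of Ras signalling (13.4 and 15.6 against 17.5 and 12.8). Dusp6, a phosphatase of the kinase ERK, had one strong member (13.8 and 14.8 against 11.9 and 15.0) and one weak one (4.96 and 6.23 against 4.32 and 5.65). Nr4a1, a nuclear receptor induced by receptor signals, had a member 7461 bp upstream with folds of 11.5 and 13.2 against 15.1 and 12.2. The lowest mean rank of all members was at Egr1, another gene induced by such signals, 4994 bp away, with folds of 3.00 and 3.65 against 3.60 and 3.53.

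The cytokine receptor and STAT5 list had 27 members near 13 of 23 genes, with 0 called higher in EpCAM-positive and 4 (14.8%) in EpCAM-negative, beside 8.31% of all members and 6.09% of all shared regions in the latter direction. All 4 calls were kept when −log10 q or pileup was ranked. Apart from Il2ra, the called members were chosen for naming after their values were seen. They were at Il4ra (9503 bp downstream, 6.74 and 7.18 against 9.83 and 9.07), the receptor chain for interleukins 4 and 13, Il21r (6058 bp upstream, 6.09 and 6.20 against 10.5 and 8.05) and Ifngr1, a chain of the interferon-gamma receptor (25895 bp upstream, 4.89 and 5.33 against 6.86 and 6.94). Il4ra and Il21r are neighbours, and the 2 called members lay in the stretch between them. A further member there, 2019 bp downstream of Il4ra, had folds of 11.6 and 10.5 against 9.84 and 9.83, in the opposite order, and was not called. The strongest members of the list were those near Cish and Socs3, feedback inhibitors of cytokine signalling (folds 13.3 and 14.4 against 17.4 and 16.9 at Cish, and 13.1 and 17.5 against 15.7 and 14.8 at Socs3), and Ifngr2 (13.1 and 14.0 against 16.0 and 17.4), none of which was called. In the list, 9 members had the higher mean rank in EpCAM-positive and 18 in EpCAM-negative cells, with a median difference of -8.29 points.

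NF-kappaB is a family of transcription factors held inactive by inhibitor proteins. Its list had 11 members near 6 of 19 genes, with a median mean rank of 51.1. It had the largest share of calls, 5 (45.5%) higher in EpCAM-positive and 3 (27.3%) in EpCAM-negative. Among all members the shares were 7.60% and 8.31%, and among all shared regions 5.86% and 6.09%. All 8 calls were at Nfkb1, Nfkbia, Traf1 and Traf3. The called members of this list were named after their values were seen, since the naming rule covers its 3 highest ranks only. Nfkb1, which encodes the p50 subunit, had members in both directions, at 39568 bp higher in EpCAM-positive (13.3 and 11.6 against 9.32 and 9.88) and at 2760 and 27212 bp higher in EpCAM-negative (9.25 and 7.60 against 11.0 and 13.1, and at the other 6.83 and 7.43 against 9.21 and 8.56). Nfkbia, the inhibitor IkappaB-alpha, had neighbouring members of opposite direction, described below. Traf1 and Traf3, adaptors of tumour necrosis factor receptors, had 3 members higher in EpCAM-positive, with folds of 11.5 and 14.1 against 9.89 and 10.6, and at the other 8.45 and 7.81 against 6.47 and 5.43 at Traf1 and 12.9 and 12.0 against 8.24 and 8.87 at Traf3. The strongest member, 46909 bp upstream of Tnfaip3, the inhibitor A20, was not called (15.7 and 16.3 against 17.7 and 16.3). When −log10 q was ranked, 5 of the 8 calls were kept, and when pileup was ranked 3.

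**Figure D4:**
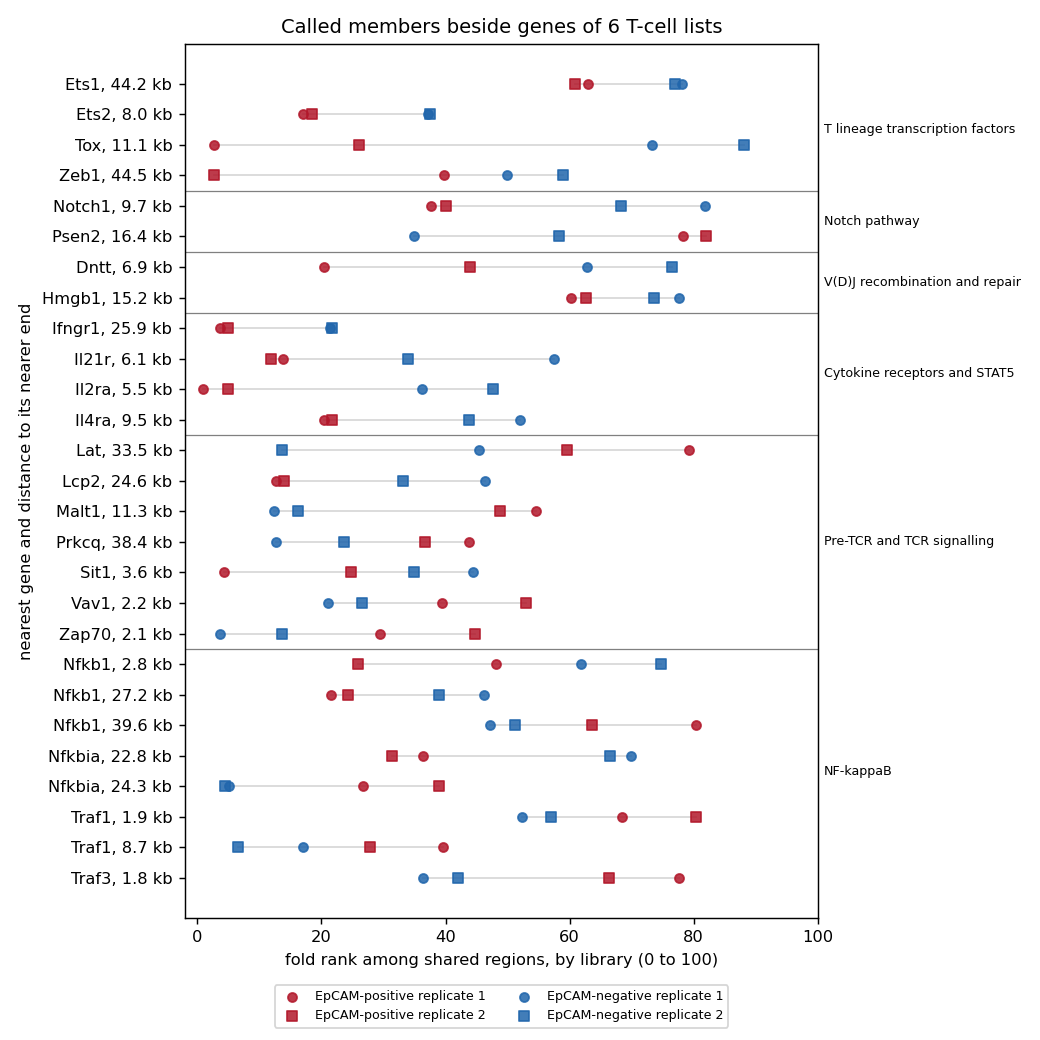
Fold rank among shared regions (horizontal, 0 to 100) in each library for called members nearest to genes of 6 lists, labelled by gene and distance in kb, in the colours and symbols used for the largest gaps. Red and blue do not overlap by construction. Blue stands to the right in all rows of the transcription factor, recombination and cytokine receptor lists, while the signalling and NF-kappaB lists hold rows of both orders.

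The remaining lists of thymocyte biology had few calls. Their shares stand beside 7.60% and 8.31% of all members and 5.86% and 6.09% of all shared regions. Adhesion and homing had 12 members with 0 and 1 (8.33%) calls, the latter at the chemokine receptor gene Ccr7 (7604 bp away, 5.72 and 5.11 against 7.85 and 8.15), which was named after its values were seen. The strongest there was 12644 bp upstream of Ccr9, a receptor that guides cells to thymus and gut (10.6 and 13.1 against 12.0 and 16.1). Genes of the DN4 and double-positive stage had 9 members and 0 calls in either direction, led by one 34512 bp from Cd1d1 (18.1 and 18.4 against 18.7 and 20.6), which presents lipids to natural killer T cells. Gamma-delta T cell genes had 10 members with 0 and 2 (20%) calls, at Sox4 (5858 bp downstream, 5.27 and 5.57 against 7.15 and 7.98) and Cpa3 (4.65 and 5.78 against 6.80 and 9.00), both named after their values were seen, and the Cpa3 call was lost when −log10 q or pileup was ranked. Progenitor genes, active before commitment, had 7 members with 1 call (14.3%) in each direction, at Gfi1b toward EpCAM-positive (9.13 and 9.65 against 8.24 and 6.81) and at Erg toward EpCAM-negative (5.40 and 4.91 against 6.97 and 8.25), again named after their values were seen. The Gfi1b call was lost under both other rankings. The strongest progenitor members, near the stem cell antigen gene Cd34 (12.0 and 12.1 against 12.9 and 12.3) and the adaptor gene Lmo2 (10.9 and 14.1 against 11.6 and 11.7), did not pass the rule.

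Cell cycle genes had 9 members with 1 call (11.1%) in each direction. This share and those below stand beside 7.60% and 8.31% of all members and 5.86% and 6.09% of all shared regions. Btg2, an inhibitor of proliferation, had the strongest (18.8 and 19.7 against 24.0 and 22.7), and members near Ccne1 (cyclin E1; 16.3 and 18.2 against 16.9 and 17.6) and E2f1 (10.8 and 11.9 against 13.1 and 12.3) followed. The calls, named after their values were seen, were at Ccnd2 (cyclin D2) toward EpCAM-positive (8.70 and 10.0 against 5.36 and 6.45) and at Cdkn1b (the inhibitor p27) toward EpCAM-negative (8.56 and 9.82 against 12.6 and 12.6), and the latter was lost when −log10 q or pileup was ranked. Immediate early and stress genes had 20 members with 0 and 1 (5%) calls, the latter at Zfp36l2, an RNA-binding protein that restrains proliferation (5.70 and 5.55 against 7.12 and 7.19), also named after its values were seen. Their strongest lay 18516 bp upstream of Fos (17.7 and 20.4 against 21.0 and 20.5) and 10547 bp upstream of Atf3 (15.8 and 16.4 against 18.2 and 22.2). Apoptosis and Wnt genes had 5 and 4 members and 0 calls in either direction. Chromatin regulators had 4 members, of which that at Tet2 was called (25%).

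Lists for other cell types that the sort could hold also had members. Thymic epithelial genes had 4 members at 2 of 11 genes, 3 at Cldn4 and 1 at Krt18. Foxn1, Aire and Ly75 each had 1 shared region that was not a member. The other 6 of the 11, among them Krt5, Krt8 and Krt14, had no shared region nearest to them. Cldn4 had 1 call (25% of the 4 members), toward EpCAM-negative (13766 bp upstream, 7.35 and 6.88 against 9.14 and 9.99). In that direction 8.31% of all members and 6.09% of all shared regions were called. The summit fragments of the 4 members summed to 59 and 50 against 53 and 47, sums that are not scaled for the higher pileup of EpCAM-positive libraries at members in general (medians of 22 and 24 against 18 and 19). By mean rank, 1 of the 4 was higher in EpCAM-positive and 3 in EpCAM-negative. B cell genes had 1 member, at Igll1 (4.67 and 7.41 against 4.76 and 5.81). Pax5 and Ebf1 each had 1 shared region that was not a member, and the other 6 of the 9, among them Cd79a, Cd79b and Ms4a1, had no shared region. Erythroid genes had 1 member, at Zfpm1, with sums of 16 and 21 fragments against 14 and 17. Klf1 had a shared region that was not a member, and 3 of the 5 erythroid genes had no shared region. Myeloid genes had 4, near Cebpb, Fcgr3 and Itgam, with a median mean rank of 71.2 and summed fragments of 203 and 205 against 148 and 163, though 2 were higher by mean rank in each fraction. Cebpa, Irf8 and Tcf4 had shared regions that were not members, while 5 of the 11, among them Csf1r, Lyz2 and Mpo, had no shared region. Genes of natural killer and innate lymphoid cells had 7 members, of which 4 were near Klrb1c, and 3 of the 8 genes had no shared region. The fragments of the 7 members summed to 305 and 313 against 219 and 224. By mean rank the order was the other way, with 2 higher in EpCAM-positive and 5 in EpCAM-negative and a median difference of -6.36 points. None of the 13 members of these 4 lists was called in either direction. The part of other cell types in the results was not tested. No member had Epcam as its nearest gene. All 7 regions nearest to Epcam were called in 1 to 3 libraries, and the one closest to membership, 33740 bp away, had folds of 8.60 and 11.1 in the EpCAM-positive libraries, 6.80 in EpCAM-negative replicate 1 and no peak in EpCAM-negative replicate 2.

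The T cell receptor loci, whose gene segments are not in the protein-coding annotation that the rule used, held 5 members. In the beta locus one lay 430 bp from the segment Trbd1 (chr6:41532311-41533195), with folds of 6.76 and 9.23 against 10.1 and 9.27, and one 226 bp from Trbd2 (chr6:41541502-41542289), with 5.84 and 7.53 against 8.01 and 12.4. D segments are joined to J segments as the first step of beta gene rearrangement. The strongest, 3061 bp from Trbv31, had 11.6 and 12.8 against 13.2 and 12.3, in the stretch after the constant genes where the beta locus enhancer is known to lie, and the fourth lay 120 bp from Trbv5 (6.53 and 7.64 against 6.52 and 8.18). The gamma locus held 1 member, 2397 bp from Trgv4 (7.11 and 6.07 against 6.70 and 7.16), and the annotated spans of the alpha and delta loci held 0. A member nearest to Dad1, named after its values were seen, starts at chr14:54227119, past the annotated end of the alpha locus at 54224198. Its mean ranks were 82.9 in EpCAM-positive and 77.3 in EpCAM-negative cells, and it was not called. None of the 5 members in the loci was called, and at Trbd2 EpCAM-negative replicate 2 stood above the other libraries.

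Members also occurred in groups. Within 10000 bp of another member lay 526 members in 248 groups, and 2159 stood alone. The largest group, 6 members between Abt1 and Btn1a1, lies among annotated transfer RNA genes and was pointed out after its values were seen. Its strongest member had folds of 13.0 and 12.7 against 12.6 and 13.3. Cbfa2t3, a corepressor of blood cell genes, had 5 members within 25175 bp, each upstream of the gene and not called. Genes with 5 or more members were Azin1, Ptma, Hmgb1, Irf2bpl, Cbfa2t3 and Tcte2. At Thy1, which encodes the surface protein that marks T cells and was named after its values were seen, 3 members had folds of 5.18 and 4.84 against 8.82 and 5.17 at 12140 bp, 9.90 and 10.2 against 12.3 and 10.4 at 20960 bp and 9.71 and 8.93 against 10.7 and 9.19 at 30884 bp, and none was called.

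Of 17 genes with 2 or more called members, 11 had calls in both directions, 4 toward EpCAM-positive alone and 2 toward EpCAM-negative alone. Calls over all members numbered 204 and 223, and genes with calls in both directions were not counted over all shared regions. Ranked by −log10 q, 9 of the 17 kept 2 or more calls and 5 of the 11 kept both directions, and ranked by pileup 3 and 2 did. Gm40363 had 3 of its 4 members called higher in EpCAM-positive, with folds of 10.7 and 9.94 against 7.85 and 7.25 at the one 10175 bp from the gene and 14.5 and 13.8 against 11.9 and 11.7 at the one 15660 bp from it, and only the former of the 3 calls was kept when −log10 q or pileup was ranked. Odc1, the first enzyme of polyamine synthesis, had 2 of 2 in the same direction (15.2 and 15.1 against 10.4 and 10.1, and at the other 10.9 and 12.1 against 9.75 and 8.60), and the latter call was lost when pileup was ranked. Of 94 pairs of neighbouring members with summits within 5000 bp, 5 had both members called, 4 of them in opposite directions and 1 (at Gm10013) in the same. The 2 members at Gm10013 were only 30 bp apart, and such pairs were not counted over all shared regions. Of the 4 opposite pairs, 2 (at Nfkbia and Pstpip1) kept both calls when −log10 q was ranked and 0 did when pileup was ranked, while the pair at Gm10013 kept both under each. These genes and pairs were picked out after their values were seen.

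The opposite pair at Nfkbia lay downstream of the gene with summits 1474 bp apart. The outer member (chr12:55464902-55465523) had folds of 7.29 and 8.86 against 5.25 and 5.21 and the inner one (chr12:55466300-55466916) 8.14 and 8.12 against 12.2 and 11.8. The EpCAM-positive libraries were the higher ones at the outer member and the lower ones at the inner member. At Pstpip1, an adaptor of the T cell cytoskeleton, the members were 23 bp apart, with folds of 7.76 and 8.15 against 5.49 and 4.93, and at the other 5.17 and 5.70 against 6.86 and 7.66. At Arhgap5, a GTPase-activating protein, the folds were 8.85 and 8.81 against 6.99 and 7.33, and at the other 6.17 and 6.64 against 8.64 and 8.67, and at Sub1, a transcriptional coactivator, 7.47 and 6.72 against 8.85 and 10.9, and at the other 7.94 and 8.95 against 6.94 and 6.28.

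Members at lncRNA promoters were compared with all such windows in the annotation. Their median mean rank was 48.8, against 37.4 for the other members, and their median folds were 9.48 and 10.1 (EpCAM-positive) and 9.44 and 9.13 (EpCAM-negative), against 8.29 and 8.98 and 8.36 and 8.66 for the others. Of the 83, 4 (4.82%) ranked higher in EpCAM-positive and 3 (3.61%) in EpCAM-negative cells, beside 7.60% and 8.31% of all members and 5.86% and 6.09% of all shared regions. The GC content of the 93 windows had a median of 57.3%, against 48.3% of all 11588 lncRNA windows and 56.3% of all 21263 protein-coding windows, and the number of CpG dinucleotides a median of 13, against 4 and 13. In both respects the windows were closer to protein-coding promoters than to the average lncRNA promoter.

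Motifs were searched as letters on both strands, and a match is a description, not a bound site. The SP/KLF motif GGGCGG was in 48.4% of the 93 windows, against 16.3% of lncRNA and 46.2% of protein-coding windows. The ETS motif AGGAAGT was in 19.4%, against 9.87% and 9.07%, and the RUNX motif TGTGGTT in 9.68%, against 6.29% and 4.71%. The CTCF core AGGGGGCG was in 7.53%, against 2.26% and 8.15%. The GGGCGG and AGGGGGCG motifs can overlap, as can AGGAAGT and the STAT motif. The E protein motifs were CAGCTG (11.8%, against 17.7% and 15.6%) and CAGGTG (24.7%, against 21.1% and 19.7%). The TCF/LEF motif ATCAAAG was in 5.38% (against 4.67% and 3.22%) and the GATA motif AGATAA in 10.8% (against 14.0% and 9.65%). Shares of 5.38% (against 9.31% and 6.99%) held the AP-1 motif TGANTCA and 24.7% (against 27.5% and 24.5%) the TGGGAA of RBPJ and Ikaros. The STAT motif TTCNNNGAA was in 10.8% (against 9.41% and 7.69%), and the MYB motif CAACTG in 10.8% (against 15.8% and 12.5%). The SP/KLF and CTCF shares lay near those of the protein-coding windows, and the ETS, RUNX, CAGGTG, TCF/LEF and STAT shares lay above both sets, in 18, 9, 23, 5 and 10 windows. No test was made, and the 93 windows come from 86 genes, so some overlap each other.

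**Figure D5:**
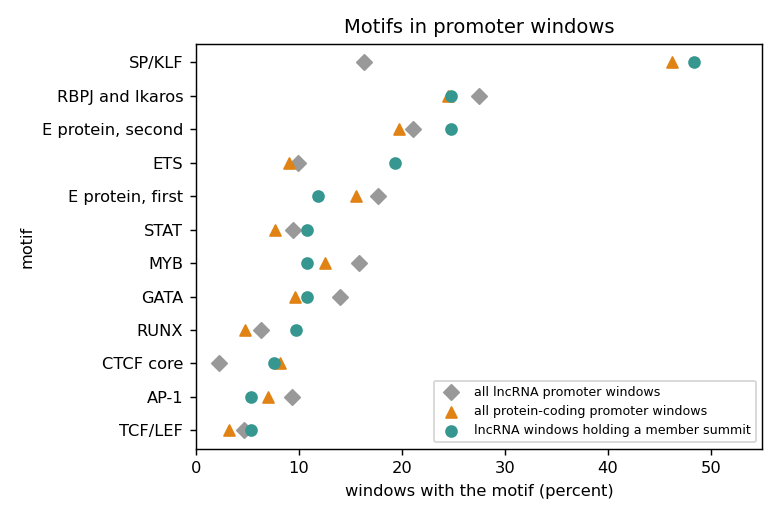
Percent of promoter windows with a match to each of 12 motifs, for the 93 lncRNA windows that hold a member summit (circles), all lncRNA windows (diamonds) and all protein-coding windows (triangles). The first E protein motif is CAGCTG and the second CAGGTG. The circle for SP/KLF lies at 48.4%, beside the triangle at 46.2%, and the circle for ETS at 19.4% lies to the right of both other marks.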

How the data were processed

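ATAC-seq peak lists in narrowPeak form, 1 for each of the 4 libraries, were analysed. The authors' fold is the ratio of the summit pileup to local background with 1 added to each, given beside −log10 p and −log10 q in the deposited lists. The deposited score is a rescaled −log10 q that was used for no result. The build was mm10 per the submitters' processing notes, which list MACS3 and Bowtie2, without roles or settings, and also FastQC, Trimmomatic, Trim Galore, Picard, SAMtools, deepTools and bedtools. The sources used here do not say how reads were shifted or duplicates treated. Peaks were called per library. No raw counts or library totals were used.

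Peaks of the autosomes (1 to 19) and of X and Y were joined into regions with Python 3.11.15, pandas 2.3.3, numpy 2.4.6 and scipy 1.17.1, and figures drawn with matplotlib 3.10.9. The members and the gene lists were chosen with earlier results of these data known. Each region's highest fold was ranked from 0 to 100 among the 16761 shared regions of a library, and a call needed a rank gap of 10 points between the fractions. The merge, location classes, pileup solution and rank rule were tested on simulated lists. There the ranks were taken from pileup and not from fold, so calls on fold ranks were not tested. Summit pileup was solved from fold and −log10 p within 0.01, for 99.9885 to 99.9959% of peaks. The only tests are exact permutation tests over libraries. Exact binomial intervals are at 95% and cover counting error only.

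Regions are named by the nearest protein-coding gene of RefSeq (GRCm38.p6). Named are the 15 highest mean ranks, the 3 highest of each of 21 gene lists with every member of the T lineage factor, Notch, T cell receptor signalling and V(D)J lists open to naming, the 12 largest gaps in each direction, genes with 5 or more members, members at the distance limits, and members at Epcam or in T cell receptor loci, and others are marked as chosen after their values were seen. Sequence around the summits was not analysed here, because no genome was used, and the planned motifs were searched in RefSeq promoter windows instead, in 93 windows of members and all 32851 windows. Alternatives were another limit on q, lists of equal length, all RefSeq genes, ranking by −log10 q or by pileup, other gaps, ranking within the members, a replicate block and leaving out each library. A result at 1 called member of the T cell receptor signalling list is not reported here.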

Additional observations from a re-analysis of the deposited data

How the results depend on the processing

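Over 67 alternative values of 7 results, 40 were the same, 22 moved and 5 changed sign. The number of members (2685) stayed between 2080 and 3003. The share of intergenic regions that were shared (34.4%) was 37.9% at −log10 q of 5 or more, 36.7% with lists of equal length, 32.2% with all RefSeq genes and 40.1% to 41.6% leaving out 1 library. The median distance (12303 bp) was 7853 bp with all RefSeq genes, since more genes lie nearby. Members ranked higher in EpCAM-positive numbered 553, 325 and 59, and in EpCAM-negative 596, 375 and 71, at gaps of 0, 5 and 20 points in place of 10. Over all 16761 shared regions the numbers were 3205, 1747 and 276, and 3475, 1887 and 295. Leaving out 1 library gave 409 to 462 and 411 to 490, since fewer ranks must agree, beside 2171 to 2441 and 2193 to 2443 among all shared regions. Ranked by −log10 q, 135 of 204 and 186 of 223 calls were kept, and ranked by pileup 96 and 136, with 0 changes of direction. The difference in median rank (0.213 points) had no stable sign: it was -0.253 at the stricter q, -0.998 ranked by −log10 q, -0.296 ranked by pileup and -0.682 to 1.11 leaving out 1 library, with -0.653 without EpCAM-positive replicate 2, and the cause was not tested. The difference in median peak width (67.5 bp) was 54.5 to 80.5 bp leaving out 1 library.

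With the replicate number as a block (replicate block), 302 and 327 members had a gap of 10 points in both pairs, beside 1579 and 1576 of all shared regions. The differences in width and rank were 67.5 bp and 0.213 points (exact permutation p = 0.5 each, the smallest 2 pairs can give). The labels do not tie the numbers to mice or days, and the correlation of the replicate differences of the fractions was 0.0810 over members. No total read number was used, so depth limits are known only as the summit pileups given in the report.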
